A study of Rattus norvegicus with 4 samples.

Results

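Voltage-gated sodium and calcium channels, intracellular calcium release channels, calcium pumps, CLC chloride channels, TRP channels and acid-sensing ion channels were compared in rat vestibular ganglion, the ganglion that holds the cell bodies of the primary afferents of the balance organs. Members were all probes whose single platform gene symbol starts with Scn, Cacn, Trpa, Trpc, Trpm, Trpv, Ryr, Itpr, Atp2a, Atp2b, Clcn or Asic in the form of a numbered family member. Of 35126 probes in the value table, 101 matched, and 90 of these, for 67 of 11039 genes with a readable value, in 11 families, could be read. Total RNA was labelled with Cy5 and hybridised to 4 one-colour arrays, 2 from the library pair labelled calretinin-positive and 2 from the pair labelled calretinin-negative. Cells were collected by laser capture after calretinin immunofluorescence, and each library came from a pool. The study set positive cells as caliceal afferents, whose endings wrap type I hair cells, against negative cells as afferents with dimorphic or bouton endings. Groups were taken from the sample titles, because the descriptions of all 4 samples call the captured cells calretinin-positive. The labels give no strain, age, sex, number of animals or number of cells for any pool, and no label says whether the 2 arrays of a group came from separate pools. The p-values therefore measure only the spread between these arrays, which may be technical.

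Sodium channels carry the upstroke of the action potential. Their alpha subunit forms the pore, and beta subunits alter gating and surface expression. Voltage-gated calcium channels are built from a pore-forming alpha1 subunit with alpha2delta, beta and, in some cases, gamma partners, and they couple depolarisation to transmitter release and calcium signalling. Calcium is released from the endoplasmic reticulum through IP3 and ryanodine receptors, returned there by SERCA pumps and expelled across the plasma membrane by PMCA pumps. CLC proteins are chloride channels or chloride/proton exchangers. TRP and acid-sensing channels are cation channels, several of which respond to temperature, chemical ligands or protons in sensory neurons.

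Names could not be read at their own row throughout the table. Names in the early part of the table, by probe ID, were paired with the value in their own row (39 of the members read), and names in the late part with the value 5 table rows later (51 members). The 11 probes between these parts were not used, which left Atp2b4, Clcn7, Scn7a, Trpm4, Trpm7 and Trpv5 with no value. The reading was checked on pairs of probes for 1 transcript. Across 991 pairs of an early with a late probe, levels correlated at r = -0.16 at the late probe's own row and at r = 0.38 when read 5 rows later. The 529 pairs lying wholly in the early part gave r = 0.36. The log2 changes of such pairs correlated weakly, at r = 0.09 with the shift and r = 0.09 within the early part. For 44 pairs whose late probe lies in the last stretch of IDs, r was -0.03 with the shift, so names there are less sure. That stretch holds 7 members. Among tested members this touches Cacnb1 and the second Trpm3 probe. These correlations run across probe pairs, which are not independent replicates.

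The calretinin gene, Calb2, had intensities of 291 and 328 in the libraries labelled positive, against 138 and 129 in those labelled negative (log2 change 1.21, adjusted p = 1.79e-06). Its direction fits the titles, and the negative libraries were not free of it. Probes with a mean below the 40th percentile of all probes, an intensity of 0.456, were called dim and were not tested. The rest were tested on the log2 scale with limma, with Benjamini-Hochberg adjustment over all 21070 probes tested, and a call means an adjusted p under 0.05. A log2 change is always positive minus negative, and an SD spans the 2 arrays of a group. With 2 arrays per group, groups without overlap say little, and dim probes such as that of Trpv2 showed this too. The share of all tested probes whose groups did not overlap was not worked out. The number of arrays limits the precision, and because intensities depend on the probe, no gene's level was set against another's.

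Markers of other cell types also differed between the groups. Summed intensities were 343 to 356 in the positive libraries and 278 in the negative for 6 neuronal markers, whereas for 10 Schwann and satellite glial markers they were 286 to 298 in the positive and 383 to 402 in the negative. For 6 oligodendrocyte markers the sums were 205 to 207 in the positive libraries and 332 to 339 in the negative. The brightest genes carried much of these glial and oligodendrocyte sums. Cldn11, not called, averaged 185 in positive and 194 in negative libraries, whereas Mog and Mobp were 42.9-fold and 40.3-fold higher in the negative. Among glial genes, Gfap was 42.7-fold and Mbp 8.63-fold higher in the negative libraries. Apoe, the 1 glial gene called the other way, was 1.71-fold higher in the positive. For 11 endothelial and mural markers they were 33.7 to 34.2 in the positive and 88.4 to 92.4 in the negative libraries. Striated muscle markers (7 genes) summed to 9.71 to 9.74 in positive and 21.2 to 21.4 in negative libraries, hair cell markers (4 genes) to 8.41 to 8.89 in positive and 10.4 to 10.5 in negative, and blood and immune markers (4 genes) to 85.8 to 89.2 in positive and 150 to 160 in negative ones. Of the tested genes, 6 of 8 glial, 3 of 5 oligodendrocyte and 8 of 9 endothelial and mural markers were lower in the positive libraries. Of the neuronal ones, 4 of 5 were higher (2 of 5 after quantile or cyclic loess normalization). After either normalization 7 of 8 glial, 4 of 5 oligodendrocyte and 8 of 9 endothelial and mural markers were lower. Over all tested probes, 23.6% were lower and 40.6% higher on the deposited scale. The muscle and blood lists had members moving both ways: Mb and Acta1 were lower and Ttn and Tnni2 higher, and Csf1r and Alas2 were lower and Ptprc and Cd68 higher. The negative means of Ttn and Tnni2, 0.280 and 0.369, lay below the dim limit. Defining markers below the dim limit in the 4-array mean were Snap25 among the neuronal genes, and Mag and Cdh19 among the glial. In the oligodendrocyte list this was Ermn, and in the endothelial and mural list Kdr and Acta2. In the muscle list these were Ckm, Myh1 and Myh7, and in the hair cell list Myo7a and Espn. Cdh19 averaged 0.0952 in positive and 0.822 in negative libraries, so its negative mean lay above the limit. These differences lie between the same 2 groups as every channel result given here, and their part in those results was not tested. In pooled tissue, fewer cells of a type and less RNA per cell cannot be told apart.

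**Figure D1:**
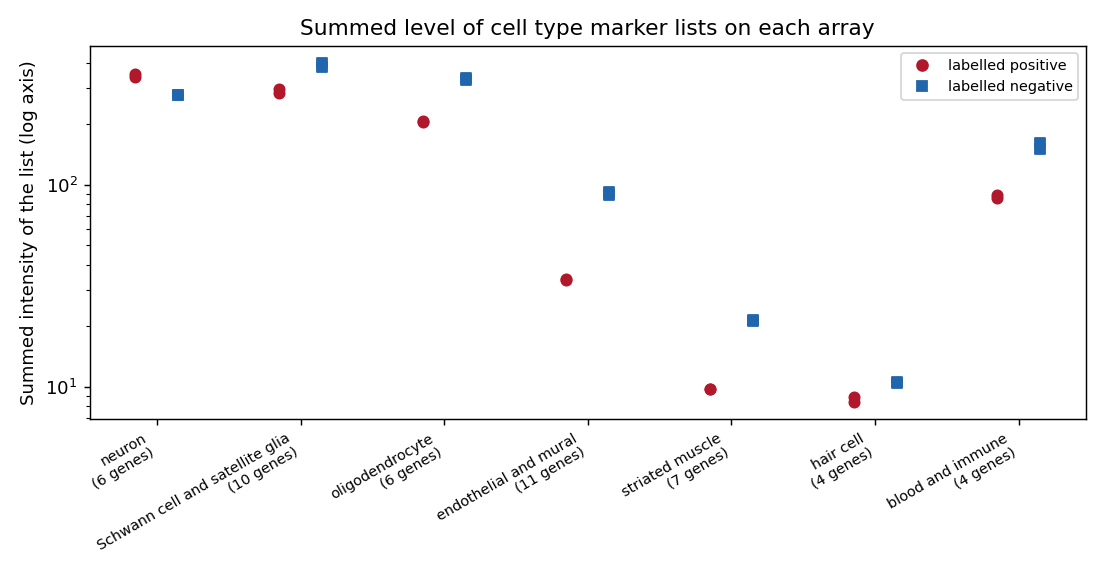
Summed intensity (log axis, deposited units) of each cell type marker list on each array, with positive libraries as circles left of negative libraries as squares. The neuronal sum is higher in the positive libraries (343 to 356 against 278), and the endothelial and mural sum is lower (33.7 to 34.2 against 88.4 to 92.4).

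Of the 90 member probes, 51 (44 genes) were bright enough to test, and 39 fell below the dim limit, 5 of them with 1 group's mean above it. In the positive libraries 23 probes were higher and 10 were lower, and 18 were not called. The 33 called were 64.7% of those tested, close to the 64.2% called over all tested probes. By direction, 45.1% of tested members were higher (40.6% of all probes) and 19.6% were lower (23.6% of all probes). At least 2-fold changes were found for 5 members, or 9.80% (15.3% of all probes), of which 3 were higher (8.28% of all probes passed in that direction) and 2 were lower (7.07%). Counted by gene on the brightest tested probe, 20 of 44 were higher and 9 were lower. With each probe judged on its own spread alone, without limma's sharing across probes, 13 of the 51 were called (10 higher, 3 lower), including all 5 that changed at least 2-fold. The other 8 were Scn3a, Scn3b, Cacnb3, Itpr1, Clcn2 and 1 probe each of Trpc1 (late), Trpm3 (first) and Asic1 (late). The remaining 20 calls were lost there, at adjusted p from 0.0518 to 0.291. The share of all tested probes called on their own spread was not worked out, so these 13 cannot be set against 64.2%. The median log2 change was 0.22 over the tested members and 0.11 over all tested probes. As a set, the channels and pumps were thus called about as often as the array as a whole, and what follows concerns the individual members.

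**Figure D2:**
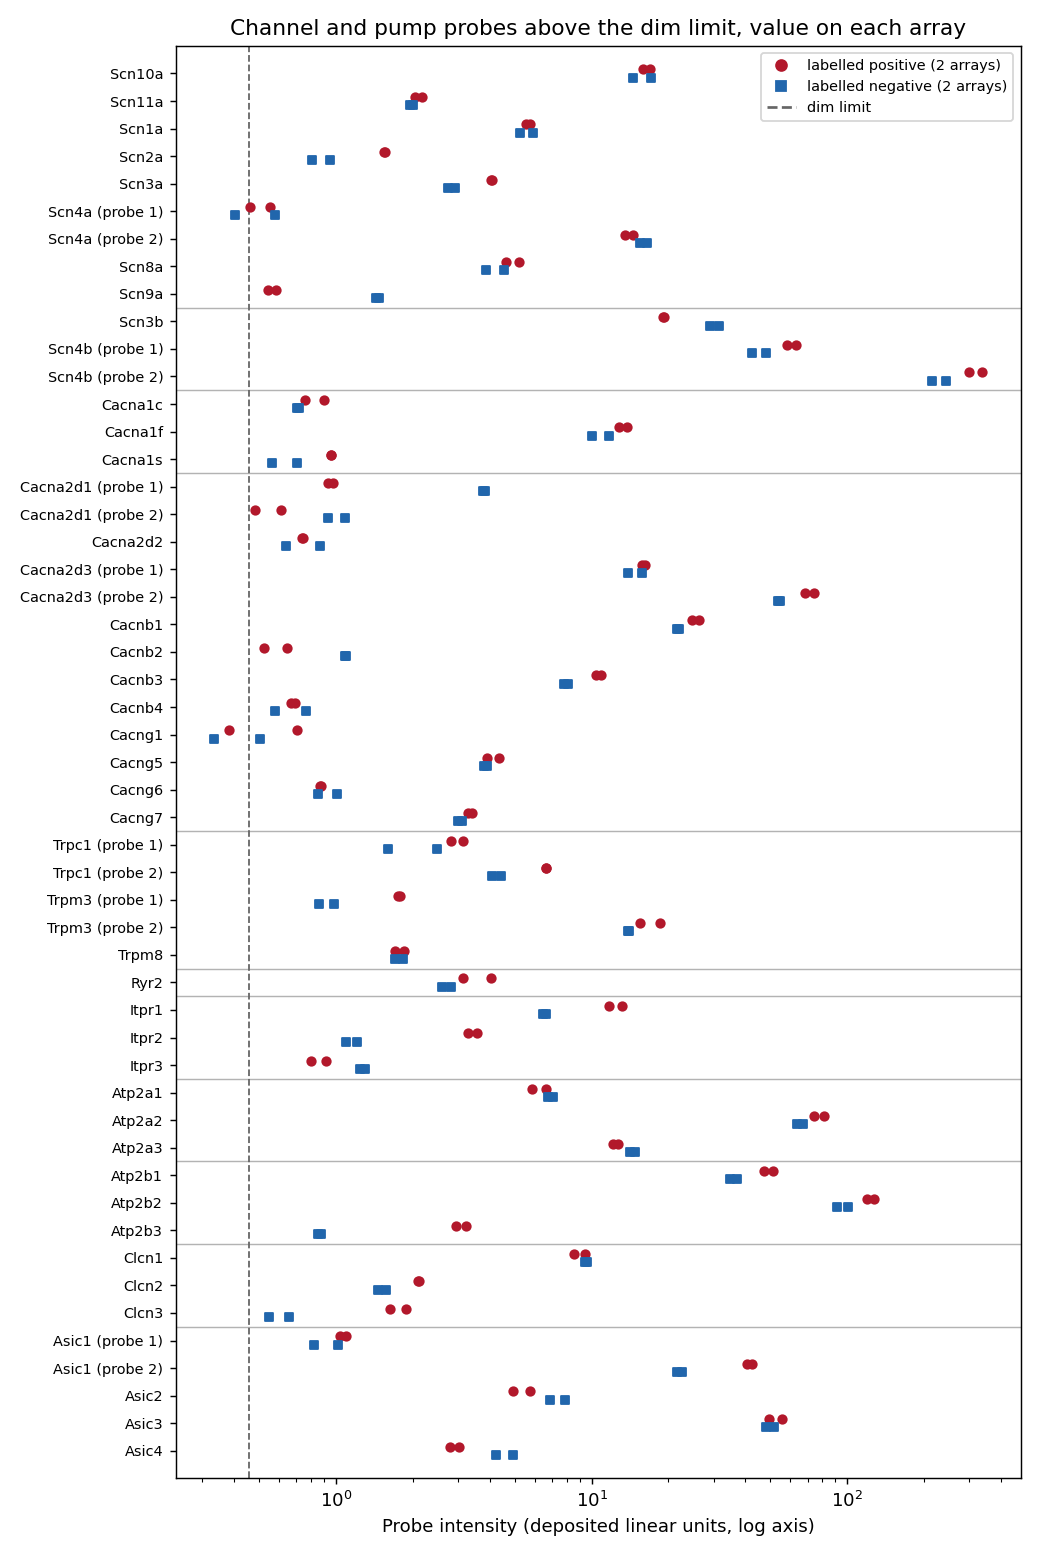
Intensity of each tested channel and pump probe on each of the 4 arrays (log axis, deposited units), grouped by family, with positive libraries as circles above negative libraries as squares and the dim limit of 0.456 as a dashed line. The widest gaps are those of Cacna2d1 (0.973 and 0.930 against 3.83 and 3.75) and Atp2b3 (3.22 and 2.95 against 0.878 and 0.853).

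The 5 members that changed at least 2-fold were Atp2b3, Itpr2 and Clcn3, higher in the positive libraries, and Cacna2d1 and Scn9a, lower in them. RefSeq's rat table (GRCr8) held the 250 bases before the gene start for Cacna2d1, Itpr2, Clcn3 and Scn9a. The first 3 are shown because they hold matches to common promoter motifs, and the matches are in capitals. The motifs searched on both strands, overlaps included, were the GC box GGGCGG, present in 30.5% of 33469 promoters of the same length, the TATA box TATAAA (12.9%), the CCAAT box CCAAT (34.0%) and the cyclic AMP element TGACGTCA (1.59%). Cacna2d1 (chr4:20330148-20330397, minus strand) held 7 GC boxes, Itpr2 (chr4:181134868-181135117, minus strand) held 4 GC boxes and 1 CCAAT box, and Clcn3 (chr16:34137754-34138003, plus strand) held 1 CCAAT box and 1 cyclic AMP element. The Scn9a promoter held none of the 4 motifs. G and C made up 77.2% of the Cacna2d1 stretch, 76% of Itpr2, 64.4% of Clcn3 and 52.4% of Scn9a, against a median of 51.2% over all promoters. The shares given for the motifs count promoters with at least 1 match. A match describes these letters and is not a binding site.
Cacna2d1: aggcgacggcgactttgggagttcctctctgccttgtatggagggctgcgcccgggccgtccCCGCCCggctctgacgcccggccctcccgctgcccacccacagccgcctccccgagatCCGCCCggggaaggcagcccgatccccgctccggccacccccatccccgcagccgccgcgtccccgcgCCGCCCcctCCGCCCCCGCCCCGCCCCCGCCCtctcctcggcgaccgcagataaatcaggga
Itpr2: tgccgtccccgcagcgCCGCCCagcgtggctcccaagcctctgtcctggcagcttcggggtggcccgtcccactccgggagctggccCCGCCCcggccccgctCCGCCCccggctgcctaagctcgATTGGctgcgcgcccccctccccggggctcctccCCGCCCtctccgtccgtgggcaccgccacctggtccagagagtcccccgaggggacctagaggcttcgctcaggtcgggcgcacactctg
Clcn3: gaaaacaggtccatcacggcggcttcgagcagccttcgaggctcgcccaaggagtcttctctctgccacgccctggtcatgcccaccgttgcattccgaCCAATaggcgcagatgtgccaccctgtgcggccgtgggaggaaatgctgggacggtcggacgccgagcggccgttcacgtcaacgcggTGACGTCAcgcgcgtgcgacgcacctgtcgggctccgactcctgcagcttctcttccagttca

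Among sodium channel alpha subunits, Scn9a was lower in the positive libraries, and Scn2a and Scn3a were higher. Scn9a encodes a channel of peripheral sensory and sympathetic neurons. Its intensities were 0.583 and 0.542 in the positive libraries, against 1.48 and 1.44 in the negative. The groups did not overlap and lay 2.60-fold apart (log2 change -1.38, SE 0.15, adjusted p = 2.89e-05), with both positive values just above the dim limit. Scn2a, a channel of central axons, averaged 1.55 ± 0.0066 in positive and 0.876 ± 0.101 in negative libraries (SD, n = 2 each; log2 change 0.83, adjusted p = 0.000405). Scn3a, best known from the developing nervous system, averaged 4.06 ± 0.027 in positive and 2.83 ± 0.14 in negative libraries (log2 change 0.52, adjusted p = 0.00024).

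The other alpha subunits showed small differences or none that passed the test. The tetrodotoxin-resistant nociceptor channels Scn10a and Scn11a differed by 0.06 and 0.09 on the log2 scale, and Scn1a by 0.02. Scn8a, the channel of mature nodes of Ranvier, had 4.63 and 5.18 in the positive libraries, against 4.54 and 3.88 in the negative. Its groups did not overlap, but the change of 0.22 gave an adjusted p of 0.0632. Scn8a was called higher without positive array 1 (0.30, adjusted p = 0.0257) or without negative array 1 (0.34, adjusted p = 0.0139), and with the replicate number as a block (adjusted p = 0.0419). Scn4a, the skeletal muscle channel, had 2 tested probes of opposite sign. The second gave a lower level in the positive libraries (-0.19, adjusted p = 0.0387), and this call was lost without positive array 1 (-0.14, adjusted p = 0.191) or negative array 1 (-0.15, adjusted p = 0.178). The first Scn4a probe gave 0.06 and was not called.

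The beta subunits moved in different directions. Scn3b was lower in the positive libraries, where its intensities were 19.1 and 19.0, against 31.6 and 29.2 in the negative. This was a 1.60-fold difference without overlap (log2 change -0.67, SE 0.07, adjusted p = 2.22e-05). Scn4b, the beta subunit linked to resurgent sodium current, was higher on both of its probes. The second probe gave 301 and 337 in the positive libraries, against 245 and 215 in the negative (log2 change 0.47, adjusted p = 0.00137), and the first gave 0.42 with the same adjusted p. After cyclic loess normalization neither Scn4b probe passed (second probe 0.17, adjusted p = 0.12; first probe 0.19, adjusted p = 0.075), and after quantile normalization only the second did (0.23, adjusted p = 0.0279). Both Scn2b probes were below the dim limit.

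**Figure D3:**
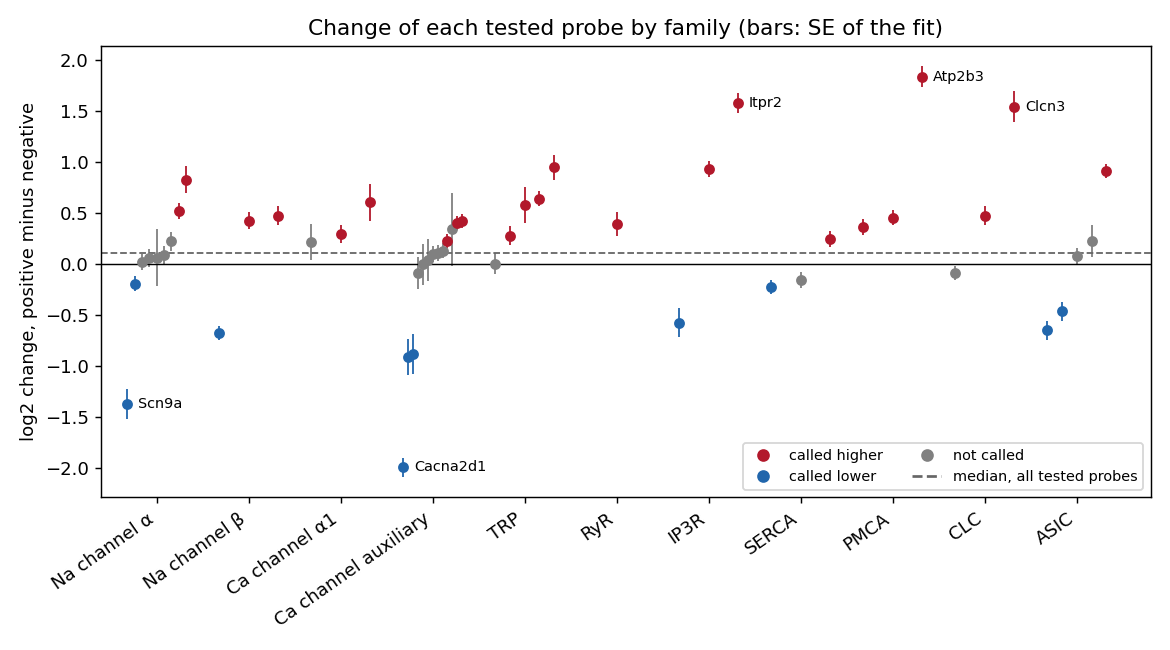
Log2 change (positive minus negative) of each tested probe by family, with bars for the standard error of the fit, red for probes called higher, blue for probes called lower, grey for probes not called, and a dashed line at the median of all tested probes, 0.11. Atp2b3, Itpr2 and Clcn3 lie above 1 and Scn9a and Cacna2d1 below -1, while all 3 PMCA probes lie above 0.

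Most pore-forming calcium channel subunits gave little signal on these arrays. Of 13 alpha1 probes read, 10 were below the dim limit in the 4-array mean, covering Cacna1a, Cacna1b, Cacna1d, Cacna1e, Cacna1g, Cacna1h and Cacna1i, with values up to 0.526 in positive and 0.667 in negative libraries. These include the P/Q-type, N-type, R-type and T-type channels. Cacna1b averaged 0.508 in positive and 0.385 in negative libraries, and 1 Cacna1e probe averaged 0.244 and 0.569. For each of these, 1 group mean lay above the limit. The levels of the 10 probes were not tested, and a dim probe does not show that the channel was absent. The 3 alpha1 genes tested were all L-type. Cacna1f, known from photoreceptors, had 13.8 and 12.8 in the positive libraries, against 10.0 and 11.7 in the negative. Its groups did not overlap, and the log2 change was 0.29 (SE 0.09, adjusted p = 0.0131). That call was lost without positive array 1 (0.24, adjusted p = 0.0555), without negative array 1 (0.18, adjusted p = 0.0976), and after quantile (0.13, adjusted p = 0.229) or cyclic loess normalization (0.12, adjusted p = 0.262). Cacna1s, the channel of skeletal muscle excitation-contraction coupling, was higher by 0.60 (adjusted p = 0.0151), which was lost without negative array 2 (0.44, adjusted p = 0.0639). Cacna1c, of heart and brain, averaged 0.829 ± 0.0996 in positive and 0.713 ± 0.0076 in negative libraries and was not called (adjusted p = 0.312).

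Among auxiliary calcium channel subunits, Cacna2d1 showed the largest fall of any member tested. It encodes an alpha2delta subunit, which carries channels to the membrane and binds gabapentin. Its early probe had 0.973 and 0.930 in the positive libraries, against 3.83 and 3.75 in the negative. The negative libraries were 3.98-fold higher, with no overlap (log2 change -1.99, SE 0.09, adjusted p = 1.35e-07). A second probe, read with the 5-row shift, had 0.481 and 0.613 in the positive libraries, against 1.08 and 0.929 in the negative, and gave a smaller change in the same direction (-0.89, SE 0.20, adjusted p = 0.00299). Cacna2d2 did not pass (-0.01). Of the Cacna2d3 probes, the second averaged 71.3 ± 3.7 in positive and 54.1 ± 0.53 in negative libraries (log2 change 0.40, adjusted p = 0.000735), and the first gave 0.11 and was not called. After quantile or cyclic loess normalization the second Cacna2d3 probe no longer passed (0.12 and 0.15, adjusted p = 0.143 and 0.0842).

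Beta subunits, which bind alpha1 inside the cell, also split. Cacnb2 was lower in the positive libraries, at 0.583 ± 0.086 there and 1.09 ± 0.010 in the negative (log2 change -0.91, adjusted p = 0.0013). Cacnb3 was higher by 0.42 (adjusted p = 0.000421). Cacnb1 had 2 probes, both read with the 5-row shift. The one outside the stretch of less sure names was dim, at 0.136 in positive and 0.202 in negative libraries. The tested Cacnb1 probe, in the stretch where names are less sure, was higher by 0.23 (adjusted p = 0.0149). It lost its call without positive array 2 (0.18, adjusted p = 0.0886) or negative array 1 (0.21, adjusted p = 0.0557), and after quantile (0.02, adjusted p = 0.857) or cyclic loess normalization (0.02, adjusted p = 0.777). The tested Cacnb4 probe was not called (0.04). A second Cacnb4 probe, in the stretch of less sure names, was not tested because its mean was dim, and had 0.647 and 0.542 in the positive libraries, against 0.0702 and 0.0643 in the negative. None of the 4 gamma subunits tested was called, with log2 changes from -0.09 for Cacng6 to 0.34 for Cacng1. Cacng1, the gamma subunit of skeletal muscle, was below the dim limit on average in the negative libraries, and without positive array 1 it was called higher (0.78, adjusted p = 0.036).

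Of the intracellular release channels, the IP3 receptors differed by paralog. Itpr2 was higher in the positive libraries, where its intensities were 3.55 and 3.30, against 1.21 and 1.09 in the negative. The groups lay 2.97-fold apart without overlap (log2 change 1.57, SE 0.10, adjusted p = 8.58e-07). Itpr1, the main IP3 receptor of central neurons, averaged 12.4 ± 1.0 in positive and 6.53 ± 0.12 in negative libraries, a 1.90-fold difference (log2 change 0.93, adjusted p = 4.97e-06). Itpr3 went the other way, at 0.857 ± 0.079 in positive and 1.27 ± 0.042 in negative libraries (log2 change -0.57, adjusted p = 0.00481). These 3 calls and directions held after quantile and cyclic loess normalization, but Itpr3 lost its call on its own spread (adjusted p = 0.0683).

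Only 1 of 6 ryanodine receptor probes was bright enough to test. Ryr2, the release channel of heart and many neurons, had 4.05 and 3.14 in the positive libraries, against 2.83 and 2.61 in the negative on that probe. Its positive arrays differed from each other more than its negative ones, and the groups did not overlap (log2 change 0.39, SE 0.12, adjusted p = 0.0146). Ryr2 lost its call without positive array 1 (0.21, adjusted p = 0.106) or negative array 2 (0.33, adjusted p = 0.0565). Its other 2 probes, both Ryr1 probes and Ryr3 were dim.

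The 3 plasma membrane calcium pumps with a value were all higher in the positive libraries, and Atp2b4 was not read. Atp2b3, a neuronal pump, had 3.22 and 2.95 in the positive libraries, against 0.878 and 0.853 in the negative. This was a 3.56-fold difference and the largest rise of any member tested (log2 change 1.83, SE 0.10, adjusted p = 4.31e-07). Atp2b1, the widely expressed form, averaged 49.3 ± 2.6 in positive and 36.0 ± 1.6 in negative libraries (log2 change 0.45, adjusted p = 0.00041). Atp2b2, the pump of hair bundles and cerebellar Purkinje cells, averaged 123 ± 5.7 in positive and 96.0 ± 6.4 in negative libraries (log2 change 0.36, adjusted p = 0.00247). After cyclic loess normalization Atp2b2 no longer passed (0.09, adjusted p = 0.302), and after quantile normalization it did (0.20, adjusted p = 0.0477). Atp2b1 passed after both, with smaller changes (quantile 0.20, cyclic loess 0.22). On their own spread Atp2b1 and Atp2b2 were not called (adjusted p = 0.0608 and 0.0945), whereas Atp2b3 was.

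The reticular pumps showed no shared direction, and their small changes depended on the scaling. Atp2a3 had 12.7 and 12.1 in the positive libraries, against 14.2 and 14.8 in the negative. Its groups did not overlap (log2 change -0.22, SE 0.07, adjusted p = 0.0153), but the call was lost without positive array 2 (-0.19, adjusted p = 0.0747) or negative array 2 (-0.19, adjusted p = 0.0785). Atp2a2, the general SERCA pump, was higher by 0.25 (adjusted p = 0.0167). That call was lost without positive array 2 (0.18, adjusted p = 0.113) or negative array 2 (0.21, adjusted p = 0.0824), and the sign turned after quantile (-0.04, adjusted p = 0.665) and cyclic loess normalization (-0.01, adjusted p = 0.945). Atp2a1, of fast skeletal muscle, was not called (-0.16, adjusted p = 0.115), but it passed as lower without positive array 2 (-0.25, adjusted p = 0.0282) and after quantile (-0.24, adjusted p = 0.0255) or cyclic loess normalization (-0.30, adjusted p = 0.00867).

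Trpc1 and Trpm3 were the TRP genes called, both higher in the positive libraries on both of their probes. Trpc1 is a subunit of receptor-operated and store-operated cation channels. Its late probe had 6.64 and 6.65 in the positive libraries, against 4.43 and 4.10 in the negative, with no overlap (log2 change 0.64, SE 0.07, adjusted p = 4.08e-05). The early Trpc1 probe gave 0.58 (adjusted p = 0.0148), and without negative array 2, its lowest array at 1.60, it gave 0.26 (adjusted p = 0.0652). Trpm3, a heat- and steroid-activated channel of sensory neurons, averaged 1.77 ± 0.026 in positive and 0.918 ± 0.087 in negative libraries on 1 probe (log2 change 0.95, adjusted p = 9.91e-05). Its second probe, in the stretch of less sure names, gave 0.28 (adjusted p = 0.02). This second call was lost without positive array 1 (0.15, adjusted p = 0.157) and after quantile (0.09, adjusted p = 0.4) or cyclic loess normalization (0.09, adjusted p = 0.384). The cold receptor Trpm8 averaged 1.77 ± 0.095 in positive and 1.77 ± 0.089 in negative libraries, and its arrays overlapped (adjusted p = 0.978). Probes for Trpv1, the capsaicin receptor, and for Trpv2, Trpv6, Trpc5, Trpc6, Trpc7 and Trpm1 were dim.

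The acid-sensing channels were split between higher and lower members. Asic1, which forms proton-gated channels in central and sensory neurons, had 40.7 and 42.6 on its late probe in the positive libraries, against 22.5 and 21.7 in the negative. This 1.88-fold difference had no overlap (log2 change 0.91, SE 0.07, adjusted p = 2.42e-06). The early Asic1 probe averaged 1.07 ± 0.040 in positive and 0.918 ± 0.14 in negative libraries and was not called (log2 change 0.23, adjusted p = 0.231). Asic2 was lower in the positive libraries on 1 of 3 probes, read with the 5-row shift. That probe averaged 5.34 ± 0.61 there and 7.36 ± 0.69 in the negative (log2 change -0.46, adjusted p = 0.00204). The other Asic2 probes were dim, at 0.100 and 0.080 in positive and 0.143 and 0.050 in negative libraries. Asic4 was lower as well on 1 of 2 probes, at 2.91 ± 0.15 in positive and 4.59 ± 0.51 in negative libraries (log2 change -0.65, adjusted p = 0.000184). The other Asic4 probe was dim, at 0.249 in positive and 0.296 in negative libraries. Asic3, a proton sensor of peripheral afferents, averaged 52.6 ± 4.5 in positive and 49.9 ± 2.5 in negative libraries and was not called (0.08, adjusted p = 0.435). Its sign turned after quantile normalization, where it passed as lower (-0.20, adjusted p = 0.0429), and after cyclic loess normalization, where it did not pass (-0.16, adjusted p = 0.0891).

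Clcn3 and Clcn2 were the chloride channel genes called, both higher in the positive libraries. Clcn3, a chloride/proton exchanger of endosomes and synaptic vesicles, had 1.63 and 1.88 in the positive libraries, against 0.655 and 0.550 in the negative. The groups lay 2.91-fold apart without overlap (log2 change 1.54, SE 0.15, adjusted p = 1.71e-05). Clcn2, a plasma membrane channel opened by hyperpolarisation, averaged 2.11 ± 0.012 in positive and 1.52 ± 0.083 in negative libraries (log2 change 0.47, adjusted p = 0.00174). Clcn1, the skeletal muscle channel, was not called (-0.09, adjusted p = 0.316), although it passed as lower after quantile (-0.21, adjusted p = 0.0297) and cyclic loess normalization (-0.25, adjusted p = 0.012). Clcn4, Clcn5 and Clcn6 were dim.

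Probes of the same gene gave a second but weak view of the reading of names. Of 21 genes with several probes, 6 had none above the dim limit, 8 had 1 and 7 had 2. The 8 were Scn8a, Scn11a, Cacnb1, Cacnb4, Ryr2, Atp2a2, Asic2 and Asic4, whose other probes were dim. In 4 of the 7 pairs (Cacna2d1, Scn4b, Trpc1 and Trpm3) both probes were called in 1 direction. Because 40.6% of all tested probes were called higher and 23.6% lower, unrelated probes can also share a call. This count therefore says little about the names, and the second Trpm3 probe lies in the stretch of less sure names. In Cacna2d3 and Asic1 both probes had the same sign on the deposited scale but 1 call, and the first Cacna2d3 probe turned to -0.08 after either normalization. Scn4a was the pair of opposite sign. The size of change could differ between probes of a gene, from -1.99 to -0.89 for Cacna2d1 and from 0.28 to 0.95 for Trpm3.

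The split between higher and lower calls depended on how the arrays were put on 1 scale. With the deposited scaling, 69.7% of called members were higher, 23 against 10 lower. Quantile normalization gave 56.7% (17 against 13) and cyclic loess normalization 55.6% (15 against 12). The calls over all tested probes were not counted for these normalizations. Across every tested probe the median change was 0.11 on the deposited scale, 0.01 with quantile and -0.01 with cyclic loess normalization. For the members it was 0.22, 0.10 and 0.09 in the same order of settings. The shift was larger for brighter probes, which reduced the positive changes of bright members such as Atp2a2, Scn4b and Atp2b2 and enlarged negative ones such as those of Atp2a1, Clcn1 and Atp2a3. The 5 members that changed at least 2-fold kept their calls and directions under both.

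**Figure D4:**
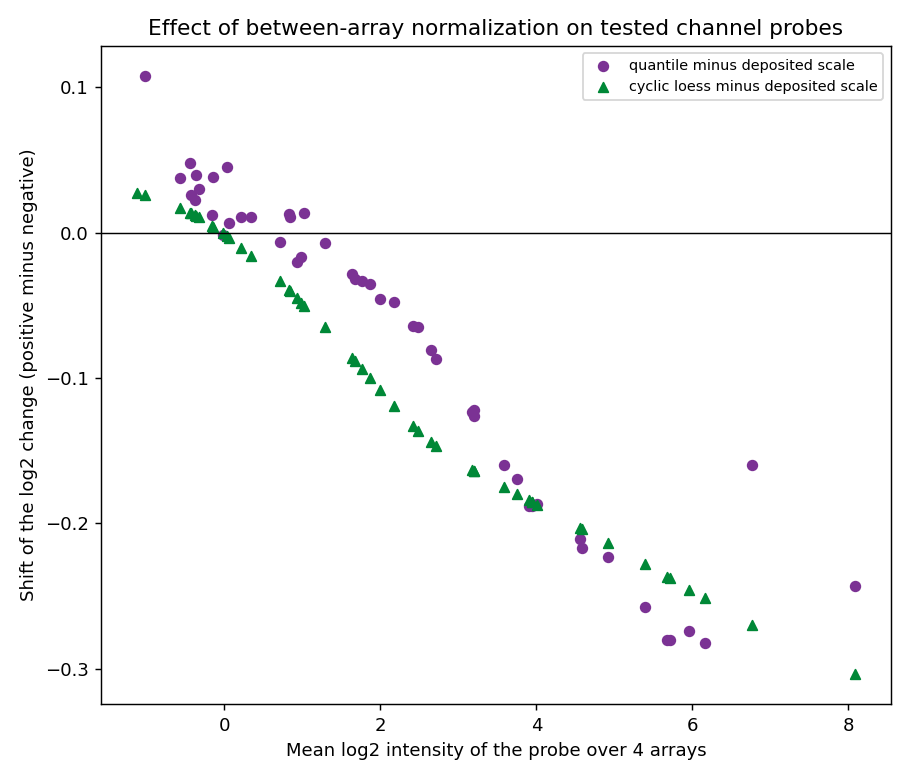
Shift of each tested member's log2 change (positive minus negative) when the deposited scale is replaced by quantile or cyclic loess normalization, against its mean log2 intensity over the 4 arrays. The brighter members moved down, as for Atp2a2, whose change of 0.25 became -0.04 and -0.01.

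Genes that work with these channels but lie outside the families were read from lists for the same pathways. Among sodium channel partners, 5 of 10 tested genes (50%) were higher in the positive libraries and 3 (30%) were lower, beside 40.6% and 23.6% of all tested probes. Quantile or cyclic loess normalization gave 4 and 3. Nedd4l, a ubiquitin ligase that removes sodium channels from the membrane, averaged 1.47 ± 0.15 in positive and 0.567 ± 0.097 in negative libraries (log2 change 1.38, adjusted p = 8.38e-05). Sptbn4, the beta-IV spectrin that anchors channel clusters at nodes and initial segments, averaged 18.8 ± 0.94 in positive and 39.3 ± 0.52 in negative libraries (log2 change -1.06, adjusted p = 1.04e-06). Its probe lies in the stretch of less sure names.

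Of 25 tested genes of calcium entry, extrusion and response, 15 (60%) were higher and 3 (12%) were lower, again beside 40.6% and 23.6% of all tested probes. After either normalization 8 were higher, with 3 lower after quantile and 4 after cyclic loess. The genes at least 2-fold higher were Camk2d and Camk1, calmodulin-dependent kinases (1.42 and 1.27), Slc24a3, a potassium-dependent sodium/calcium exchanger (1.27, in the stretch of less sure names), and Atp2c1, the Golgi calcium pump (1.06). Slc24a3 fell short of 2-fold after cyclic loess normalization. Pln, the phospholamban that restrains SERCA pumps, averaged 3.49 ± 0.090 in positive and 7.15 ± 0.68 in negative libraries (log2 change -1.03, adjusted p = 4.21e-06).

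Chloride transport held the widest differences of the neighbouring lists. Of 11 tested genes, 5 (45.5%, all probes 40.6%) were higher and 4 (36.4%, all probes 23.6%) were lower, with 4 higher and 5 lower after either normalization. Slc12a5, the potassium/chloride cotransporter that keeps neuronal chloride low, had 0.493 and 0.536 in the positive libraries, against 13.7 and 12.4 in the negative. The negative libraries were 25.4-fold higher (log2 change -4.67, SE 0.09, adjusted p = 1.19e-09), and the positive values lay just above the dim limit. Slc12a2, the sodium/potassium/chloride cotransporter that loads cells with chloride, averaged 20.5 ± 0.90 in positive and 57.1 ± 1.8 in negative libraries (log2 change -1.48, adjusted p = 1.54e-07). Ttyh1, a tweety family member, averaged 0.952 ± 0.15 in positive and 5.50 ± 0.43 in negative libraries (log2 change -2.54, adjusted p = 1.6e-07).

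Among other cation channels 4 of 8 tested genes (50%, all probes 40.6%) were higher and 0 were lower (all probes 23.6%), on the deposited scale and after either normalization. Piezo1, a mechanically gated channel, averaged 2.94 ± 0.083 in positive and 1.23 ± 0.0071 in negative libraries (log2 change 1.26, adjusted p = 2.13e-06). Of the sodium and potassium pump list, 2 of 8 genes (25%, all probes 40.6%) were higher and 3 (37.5%, all probes 23.6%) were lower, with 2 and 4 after cyclic loess. The genes past 2-fold were all FXYD proteins, small regulators of the pump. Fxyd5 was higher (1.60, adjusted p = 7.15e-08), whereas Fxyd1 (-2.36, adjusted p = 1.02e-08), Fxyd2 (-1.60, adjusted p = 1.13e-05) and Fxyd6 (-1.14, adjusted p = 9.7e-07) were lower. The glial, oligodendrocyte and endothelial marker sums given above were lower in the positive libraries too.

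**Figure D5:**
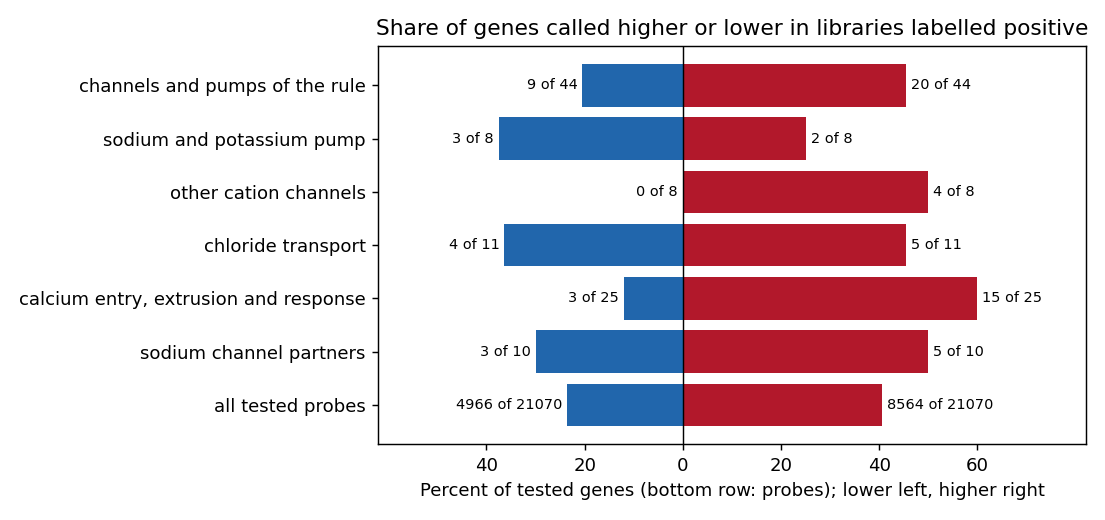
Percent of tested genes called lower (left, blue) and higher (right, red) in the positive libraries for the channels and pumps, for the 5 neighbouring lists and, in the bottom row, for all tested probes, with counts beside the bars. Channels and pumps (20 and 9 of 44) lie near the row of all probes (8564 and 4966 of 21070).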

How the data were processed

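The authors deposited 1 normalized intensity per probe and array, on a linear scale with 532 to 776 values at or below 0 and an array median of 0.990 to 0.992 over 35126 probes. The sources used here do not state how they were background-corrected or normalized. Names came from GEO's platform annotation, with 16677 probes carrying 1 symbol, of which 14667 had a value read, and all 101 matching probes had a gene ID in the rat RefSeq table. A code for missing values was set aside, and 9 probes lacked every value. Missing values of the other probes, and all values at or below 0, were set to the 1st percentile of an array's positive values before log2. Smaller positive values were left as they were. Probes under the 40th percentile of mean log2 intensity were left out. The remaining 21070 probes were fitted with limma 3.58.1 (lmFit, eBayes with trend, two-sided) in R 4.3.3, checked on simulated data, and figures were drawn with matplotlib 3.10.9.

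Full values are given for members with an adjusted p under 0.05 and at least a 2-fold change, and otherwise for the tested member of a family with the smallest p. Other members have a change or level, and neighbouring genes have values from 2-fold on. The members, gene lists and marker lists were chosen with earlier results of these data known, so no list was tested as a set. Positive and negative arrays share replicate numbers, but deviations of same-numbered arrays correlated at r = 0.000316, and they were not treated as pairs.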

Additional observations from a re-analysis of the deposited data

How the results depend on the processing

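With 2 arrays in each group, 2 residual degrees of freedom remained per probe, and dim probes set what could be measured. Over 14 settings, the 51 tested members gave 693 values, of which 604 kept direction and side of the threshold, 54 lost the call, 9 gained one and 26 turned sign. Of these 26 values, over 11 probes, 3 were called on the deposited scale or in the other setting and 23 in neither. All 67 values of the 5 members that changed at least 2-fold kept call and direction in the settings that tested them, but the 60th-percentile filter tested 2 of these 5. After cyclic loess normalization 15 members were higher, with a median change of 0.0889, and after quantile normalization the median was 0.10. With each probe on its own spread, 13 probes were called (10 higher, 3 lower), or 12 genes. With no filter on dim probes the median was 0.14. With the 60th-percentile filter 6 were lower and 2 at least 2-fold. Leaving out 1 array gave a median from 0.16 to 0.24. In the early part alone 12 of 23 tested probes (52.2%) were called (8 higher, 4 lower, 2 at least 2-fold), for 12 genes. In the late part 21 of 28 (75%) were called, beside 64.2% over all tested probes. With late names at their own row, 8 passed 2-fold and the median was 0.12. With quantile normalization the sign turned for Asic3 (-0.204), Atp2a2 (-0.0369), Cacna2d2 (0.0207), the first Cacna2d3 probe (-0.0782), Scn10a (-0.127) and Scn1a (-0.0453). With cyclic loess it turned for Asic3 (-0.161), Atp2a2 (-0.00631), Cacna2d2 (0.00815), the first Cacna2d3 probe (-0.0761), Cacng5 (-0.0113), Scn10a (-0.127), Scn1a (-0.117) and Trpm8 (-0.0358). Leaving out 1 array gave values on both sides of 0 for 8 probes, none called on the deposited scale: Asic3 (-0.0116 to 0.163), Cacna2d2 (-0.228 to 0.218), Cacnb4 (-0.167 to 0.240), Cacng6 (-0.219 to 0.0345), Scn10a (-0.0593 to 0.179), Scn1a (-0.0633 to 0.103), the first Scn4a probe (-0.201 to 0.327) and Trpm8 (-0.0508 to 0.0582). With the replicate number as a block 34 probes were called, and with probes averaged per gene 28 of 44 genes. Leaving out the 7 probes of the last stretch of IDs was chosen after seeing the data and kept every count within 1.5 times. Values of single members were not recomputed for the settings that changed which names were read. The cause of these shifts was not tested.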
